A study of Mus musculus with 10 samples.

Results

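Chromatin accessibility was examined at 9 genes that direct the formation of ependymal cells and of multiple motile cilia: Foxj1, Rfx1, Rfx2, Rfx3, Rfx4, Mcidas, Ccno, Trp73 and Myb. A peak was counted as belonging to a gene when its summit lay in the gene body or within 20 kb of it, and peaks of different libraries that overlapped were merged into a region. These genes held 84 of the 137454 regions found in all. The cells came from the subependymal zone (SEZ) of 10-week-old mice and were grown as neural stem cells. ATAC-seq marks open chromatin by the places where the Tn5 transposase can insert adapters. Wild-type (WT) cultures were compared with p27KO cultures, in which Cdkn1b, the gene of the CDK inhibitor p27, is deleted and which came from a colony with a C57BL/6J background. Proliferating cells (PRO) were neurospheres kept in 20 ng/ml EGF and 10 ng/ml FGF. Differentiating cells (DIFF) had spent 2 days on Matrigel in medium for which the paper names FGF only. This was followed by 24 h without mitogens in 2% serum. WT had 3 libraries in each condition and p27KO had 2, which makes 10, and 50000 cells went into each library. PRO and DIFF differed in substrate and serum as well as in mitogens, and these cannot be told apart. The time of the PRO cells in vitro is given as 3 days in the labels but differently elsewhere in the study and is not settled. The study calls its replicates biological, but which animals or cultures stand behind each library is not given in the sources used here, and p-values measure the spread between these libraries.

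Ependymal cells line the ventricle beside the SEZ and beat their cilia to move cerebrospinal fluid. They share a radial glial origin with the adult neural stem cells. In multiciliated cells, multicilin (the product of Mcidas), a coiled-coil protein of the geminin family without DNA-binding activity of its own, acts through E2F4 or E2F5 to turn on centriole amplification. Ccno, its neighbour in the genome, encodes cyclin O, which takes part in making those centrioles. Trp73, which encodes the p53 family member p73, and the progenitor factor Myb act early in the same programme. FOXJ1, a forkhead factor, and the RFX factors, which bind a palindromic site called the X-box, then switch on the genes of the axoneme. RFX4 is in addition a factor of neural progenitors and brain patterning.

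The sequences shown first are the stretch before the Foxj1 start site, with its X-box, and the 4 regions that changed between PRO and DIFF in both genotypes. They were read from GRCm38, 5′ to 3′, with motif matches in capitals. The first is on the minus strand of chr11:116335400-116335549 and ends at the base before the start site. The others are on the plus strand and cover the region's summit and 100 bases on each side. They are chr11:116342424-116342624 in an intron of Rnf157 upstream of Foxj1, chr17:56805033-56805233 in an intron of Rfx2, and chr10:84871369-84871569 and chr10:84886439-84886639 in introns of Rfx4.
Foxj1 upstream of the start: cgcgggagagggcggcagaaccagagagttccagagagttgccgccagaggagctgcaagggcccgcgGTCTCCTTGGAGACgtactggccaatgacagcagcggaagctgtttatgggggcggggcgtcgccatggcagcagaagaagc
Foxj1, 7125 bp upstream: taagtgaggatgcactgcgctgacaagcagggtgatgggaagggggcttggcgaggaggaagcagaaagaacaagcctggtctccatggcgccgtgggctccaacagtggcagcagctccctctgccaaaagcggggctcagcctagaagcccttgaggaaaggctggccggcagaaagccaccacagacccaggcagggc
Rfx2, 25880 bp downstream: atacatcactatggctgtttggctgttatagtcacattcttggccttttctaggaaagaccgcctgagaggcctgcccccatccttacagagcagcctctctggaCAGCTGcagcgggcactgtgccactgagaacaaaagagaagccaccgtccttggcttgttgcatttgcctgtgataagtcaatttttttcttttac
Rfx4, 115407 bp downstream: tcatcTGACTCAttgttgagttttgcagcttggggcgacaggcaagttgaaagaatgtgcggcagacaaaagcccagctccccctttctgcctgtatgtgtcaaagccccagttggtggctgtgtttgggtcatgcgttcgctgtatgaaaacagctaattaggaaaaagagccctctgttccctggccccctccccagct
Rfx4, 130477 bp downstream: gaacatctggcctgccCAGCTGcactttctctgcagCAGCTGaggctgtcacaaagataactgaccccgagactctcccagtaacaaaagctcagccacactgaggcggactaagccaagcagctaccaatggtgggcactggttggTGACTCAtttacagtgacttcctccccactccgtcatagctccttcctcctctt

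Capitals mark an X-box in the first sequence, an E-box (CAGCTG) in the Rfx2 region, an AP-1 site (TGANTCA) in the Rfx4 region at 115407 bp, and an AP-1 site and 2 E-boxes in the Rfx4 region at 130477 bp. The X-box was searched as GTNNCC and GGNNAC separated by 0 to 3 bases, a pattern that is its own reverse complement, and the other motifs on both strands. The Foxj1 X-box ran from 82 to 69 bases before the start site. It was the only X-box in the 150 bases before the 9 start sites, and 2.12% of the 32851 RefSeq promoters of GRCm38 held a match in the same window. Within 100 bases of a summit, an X-box was present in 6 of the 47 member regions tested, those listed by at least 5 libraries, and in 3.79% of 70509 such regions on the assembled chromosomes. Besides the Foxj1 promoter, these 6 were 1 region each of Rfx1, Rfx2 and Myb and 2 of Rfx4. The forkhead motif TGTTTAC was found in 1 of the 47 against 2.64%, the E2F motif (TTCCCGC or TTGGCGC) in 4 against 3.39%, the AP-1 site in 5 against 8.23% and the E-box in 10 against 21.4%. A match describes the letters in the window and not binding of a factor.

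Each deposited list held 57534 to 91801 peaks, of which 44 to 55 (0.0588 to 0.0782%) belonged to the 9 genes. Member peaks numbered 52, 55 and 53 in WT PRO, 44, 45 and 54 in WT DIFF, 54 and 52 in p27KO PRO, and 45 and 52 in p27KO DIFF. The third WT DIFF library stood apart from the other WT DIFF libraries, with 88738 peaks against 61783 and 57534. The lists do not give read depth, and a missing peak may be a region too shallow to call rather than an inaccessible one. As a check of the labels, a peak at the Cdkn1b promoter was present in 6 of 6 WT and 0 of 4 p27KO libraries. The same split was seen at the promoters of the Y-linked genes Ddx3y, Eif2s3y and Uty, so genotype and the sex of the cultured animals cannot be told apart. All 8 neural stem or progenitor markers had a promoter peak in every library, against 4 to 6 of 8 ependymal, 3 to 5 of 5 neuronal, 2 to 3 of 5 microglial and 0 to 1 of 5 endothelial markers. A promoter peak in all 10 libraries was held by 8, 3, 3, 2 and 0 markers of these lists in turn. Of the 21842 annotated protein-coding genes, 59.3% held one. Among the ependymal markers, Foxj1, Dynlrb2 and Cd24a had a promoter peak in all 10 libraries, S100b in 9 and Aqp4 in 8. Rarres2, Tmem212 and Ccdc153 had a promoter peak in 1 library each. In a bulk culture, fewer cells of a type and less open chromatin per cell cannot be told apart.

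Of the 84 member regions, 33 had a peak in all 10 libraries and 20 in 1 library only, with 64 in at least 2 libraries. The summit lay in an intron in 52, between genes in 25, in a coding exon in 4 and in a UTR in 3. Rfx4 held the most regions, 22 over a gene body of 150.5 kb, followed by Trp73 with 16 over 84.0 kb and Rfx2 with 15 over 55.1 kb. Rfx3, the longest gene at 249.4 kb, held 9. Foxj1 and Rfx1 held 6 each, Mcidas and Myb 5 each and Ccno 4, and all 4 Ccno regions also lay in the window of Mcidas. The windows reach into neighbouring genes, and 10 of the 84 regions sat within 3 kb of the start of a gene that is no member, such as Dcaf15 beside Rfx1 and Wrap73 beside Trp73.

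All 9 promoters had an accessible region, with the summit within 3 kb of a start site of a protein-coding transcript. In 8 of the 9 a peak was called in all 10 libraries, against 59.3% of the 21842 annotated protein-coding genes. Promoter peaks were compared by the percentile of their fold enrichment, the ratio of the summit's pileup to local background, within the list of each library. Rfx2 ranked highest, with a median percentile over 10 libraries of 97.5 (95.3 to 99.4). It was followed by Ccno at 94.2 (89.3 to 97.9), Rfx1 at 90.0 (85.2 to 92.2) and Rfx3 at 86.8 (81.4 to 93.0). Myb at 69.5 (56.2 to 82.9), Foxj1 at 67.7 (54.2 to 72.2) and Rfx4 at 60.7 (50.7 to 65.5) formed the middle of the order. Trp73, whose region lay at an internal start site and not at the outermost one, had the widest spread, at 44.2 (16.2 to 81.3). Mcidas was lowest, at 20.3 (3.34 to 30.5) over the 7 libraries that had its peak. The ranges of every pair of neighbours in this order overlapped across libraries. Compared within each library, Rfx2 lay above Ccno and Ccno above Rfx1 in every library. The 4 highest promoters lay above Foxj1 and Rfx4 in all libraries.

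**Figure D1:**
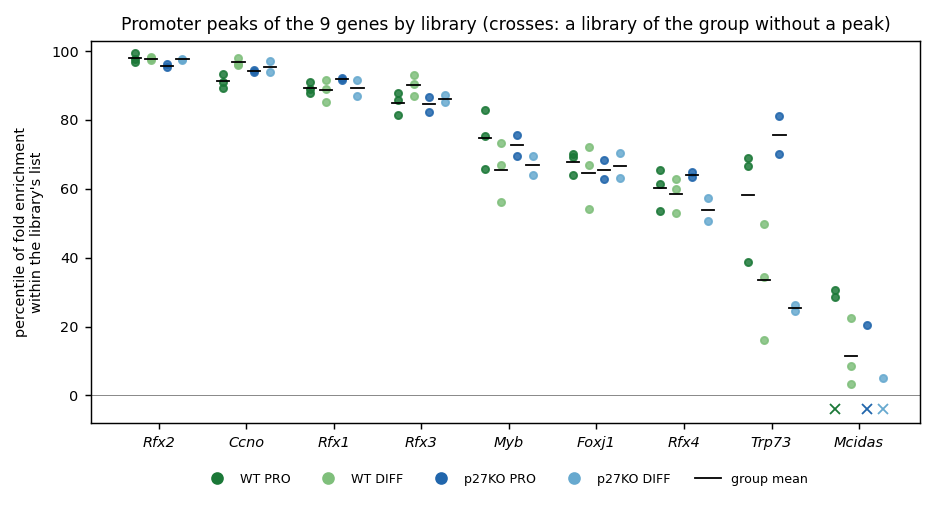
Percentile of fold enrichment of the promoter peak of each gene within the list of each library (points, coloured by group), with group means as bars where every library of the group had a peak and crosses below 0 where a library had none. Rfx2, Ccno, Rfx1 and Rfx3 lie above 80 in all libraries, Trp73, taken at an internal start site, spreads from 16.2 to 81.3, and Mcidas lacks a peak in 3 libraries.

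None of the 9 promoters was called between PRO and DIFF in either genotype by limma, with 1 in each at an unadjusted p under 0.05 (Ccno in WT and Trp73 in p27KO). Changes were tested on normal scores, the within-list rank of a region's fold enrichment turned into a standard normal deviate, and regions missing from a list share its lowest rank. Limma was fitted over the 70627 regions listed by at least 5 of the libraries and p-values were adjusted over all of them, with calls at an adjusted p under 0.05. At Foxj1 the promoter peak (chr11:116335228-116336029) had fold enrichments of 8.23, 7.55 and 7.86 in WT PRO and 5.62, 7.47 and 7.04 in WT DIFF. In p27KO they were 6.74 and 7.82 at PRO and 7.70 and 7.65 at DIFF. The groups overlapped, and the change was 0.04 ± 0.20 (SE) normal scores in WT (adjusted p = 0.915) and 0.25 ± 0.24 in p27KO (adjusted p = 0.577).

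The Trp73 promoter region with the widest spread of the 9 (chr4:154116519-154116941) lay at an internal start site, 23578 bp into the gene. Fold enrichment was 8.20, 7.94 and 4.64 in WT PRO against 5.31, 3.47 and 4.02 in WT DIFF. In p27KO it was 10.5 and 8.08 at PRO against 3.82 and 4.26 at DIFF. The p27KO groups were apart while the WT groups overlapped, and the change was −1.05 ± 0.33 in p27KO (adjusted p = 0.0594) and −0.42 ± 0.27 in WT (adjusted p = 0.315). Neither passed, and the difference between the genotypes was −0.64 ± 0.42 (adjusted p = 1.00). The p27KO change passed under 5 alternatives, among them a fit on the p27KO libraries alone (adjusted p = 0.0393). At the outermost start of Trp73, a weak region (chr4:154139853-154140429) was listed by the 3 WT PRO libraries, the third WT DIFF library and both p27KO PRO libraries and by no p27KO DIFF library, at fold enrichments of 2.81 to 3.48. Its 201-base window held 3 E2F matches.

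The Mcidas promoter peak (chr13:112993514-112994016) was weak in every group. It was listed at fold enrichments of 4.36 and 4.06 in WT PRO, where 1 library had none, and 3.79, 3.22 and 2.75 in WT DIFF. In p27KO it was listed in 1 of 2 PRO libraries, at 3.47, and in 1 of 2 DIFF libraries, at 3.12. Its change in score was 0.26 ± 0.34 in WT (adjusted p = 0.644) and 0.31 ± 0.41 in p27KO (adjusted p = 0.693). These signs ran against the listed fold enrichments, which were lower at DIFF. The WT PRO library without a peak was set at −1.68. A fold enrichment of 4.36 in the first WT PRO library scored −0.66, and 3.79 in the first WT DIFF library scored −0.36. The positive changes are therefore no rise in fold enrichment. By contrast, the Ccno promoter (chr13:112987324-112988446), which lies 6139 bp before the Mcidas start, had fold enrichments of 12.9, 12.6 and 13.3 in WT PRO and 13.4, 14.7 and 15.1 in WT DIFF. All WT DIFF values exceeded all WT PRO values, but the change of 0.56 ± 0.20 did not pass (adjusted p = 0.0686). In p27KO the Ccno promoter was at 14.9 and 14.8 in PRO and 15.7 and 15.6 in DIFF, a change of 0.26 ± 0.24 (adjusted p = 0.560).

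The remaining promoters showed changes of −0.14 to 0.35 in WT and −0.03 to 0.35 in p27KO. They were Rfx1 (chr8:84066268-84067462), Rfx2 (chr17:56830714-56831617), Rfx3 (chr19:28010530-28012380), Rfx4 (chr10:84754761-84756476) and Myb (chr10:21160522-21161702). Over all 13270 tested promoter regions, 1.97% were lower and 2.70% higher at DIFF in WT, and 0.957% lower and 1.21% higher in p27KO.

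Over all 47 tested member regions, the 9 promoters included, 8 differed between PRO and DIFF in WT, 3 lower and 5 higher at DIFF. This share of 17.0% compares with 19.2% of all tested regions (10.1% lower and 9.15% higher). Over the whole genome, 7.02% of regions within 3 kb of a start site and 23.3% of those beyond it were called, and 7 of the 8 member calls lay beyond 3 kb, where 28 of the 47 regions were. In p27KO, 4 member regions were called, 2 lower and 2 higher, or 8.51% against 12.3% of all regions (6.48% lower and 5.83% higher). The background there was 3.72% within 3 kb and 15.2% beyond it. The median change of the 47 regions was 0.11 in WT and 0.18 in p27KO, against 0.03 and 0.04 for all regions. The 4 p27KO calls were all among the 8 WT calls, with the same sign, and all 8 had the same sign in p27KO. The share of all called regions that agreed in this way is not given here. By score, DIFF lay wholly on the same side of PRO in both genotypes in 26.7% of all tested regions and 16 of the 47. It lay on opposite sides in 0.752% and in 0 of the 47. With each library left out in turn, 4 to 9 regions were called in WT and 1 to 5 in p27KO, the fewest without WT PRO 2 or WT DIFF 1 and without either p27KO PRO library or p27KO DIFF 2.

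**Figure D2:**
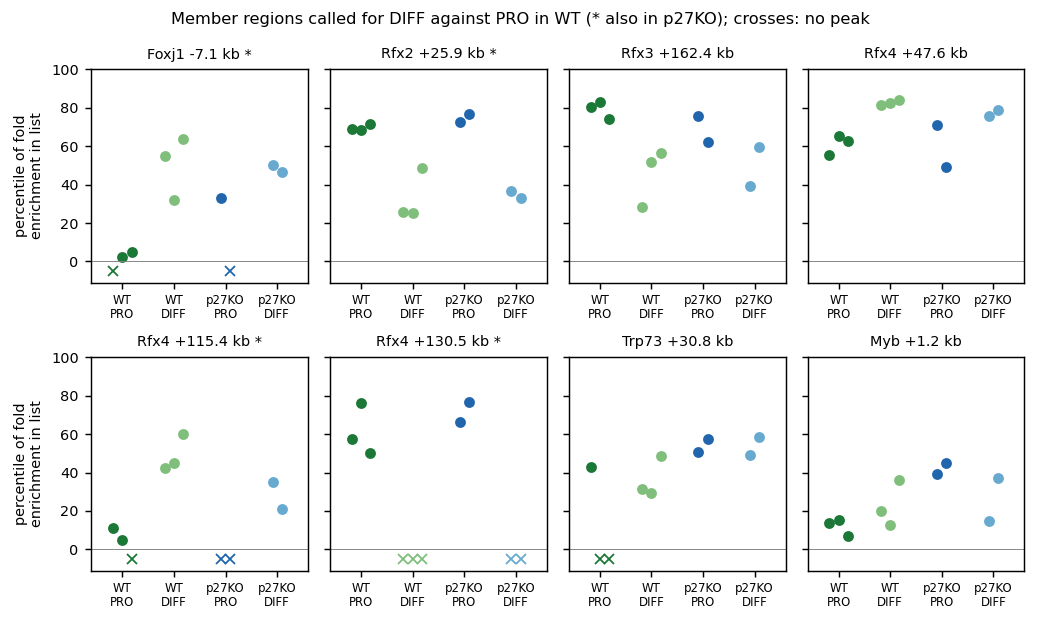
Percentile of fold enrichment within the list of each library (points) for the 8 member regions called between PRO and DIFF in WT, headed by gene and distance from its first start site, with crosses below 0 for libraries without a peak. An asterisk marks the 4 regions also called in p27KO, of which Rfx4 at +130.5 kb has a peak in every PRO and in no DIFF library.

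Upstream of Foxj1, the ciliogenesis factor that marks ependymal cells, a region in an intron of Rnf157 (chr11:116342283-116342828, 7125 bp before the Foxj1 start and 5394 bp from that of Rnf157) was higher at DIFF. No peak was listed in 1 WT PRO library, and the other two had fold enrichments of 2.72 and 2.93, against 5.79, 4.16 and 6.56 in WT DIFF. In p27KO, PRO had 4.07 and no peak and DIFF had 5.35 and 5.68. All DIFF libraries were above all PRO libraries of their genotype. By score, 26.7% of all tested regions were split in the same direction in both genotypes. The change was 1.46 ± 0.25 in WT (adjusted p = 0.0020) and 1.24 ± 0.30 in p27KO (adjusted p = 0.0213). The p27KO call was lost without the second p27KO PRO library, which had no peak there (0.79, adjusted p = 0.217), and without either p27KO DIFF library (adjusted p = 0.115 and 0.0736). The other 4 tested Foxj1 regions, the promoter included, were not called.

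Rfx4, with the most tested regions, had 3 of its 11 called in WT and 2 of them also in p27KO. The count was 1 of 3 for Myb, 1 of 4 for Rfx3, 1 of 5 for Foxj1, 1 of 8 for Trp73 and 1 of 10 for Rfx2, against 19.2% of all regions. The region 130477 bp into the gene (chr10:84886126-84886956) had a peak in all 5 PRO libraries and in no DIFF library. Its fold enrichments were 6.61, 9.59 and 5.52 in WT PRO and 7.39 and 9.31 in p27KO PRO, well inside the lists at the 50.2 to 76.5 percentile. The change was −1.52 ± 0.25 in WT (adjusted p = 0.0019) and −1.73 ± 0.31 in p27KO (adjusted p = 0.0048). The p27KO call was lost without the second p27KO DIFF library (−1.62, adjusted p = 0.0523).

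The region 115407 bp into Rfx4 (chr10:84871277-84871920) changed the opposite way. It was listed at 3.32 and 2.95 in WT PRO, with no peak in the third library, and at 4.81, 4.86 and 6.14 in WT DIFF. Neither p27KO PRO library had a peak, and the p27KO DIFF libraries had 4.33 and 3.98. The groups did not overlap in either genotype, a split that 26.7% of all tested regions showed by score. The change was 1.37 ± 0.20 in WT (adjusted p = 0.00077) and 1.33 ± 0.24 in p27KO (adjusted p = 0.0047). In p27KO the call was lost without the first p27KO PRO library (1.14, adjusted p = 0.0608). These regions with opposite changes both lay in introns of the 150.5 kb gene.

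The third Rfx4 region called, 47601 bp from the start (chr10:84803271-84804169), rose from 6.98 ± 0.70 (SD, n = 3) in WT PRO to 9.72 ± 0.80 (n = 3) in WT DIFF. The change was 0.79 ± 0.19 (adjusted p = 0.0159). It was lost without the first WT PRO library or the first or second WT DIFF library (adjusted p = 0.0629, 0.0531 and 0.0578). In p27KO the values were 8.17 and 5.39 at PRO and 8.70 and 10.6 at DIFF, a change of 0.71 ± 0.24 (adjusted p = 0.0800).

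**Figure D3:**
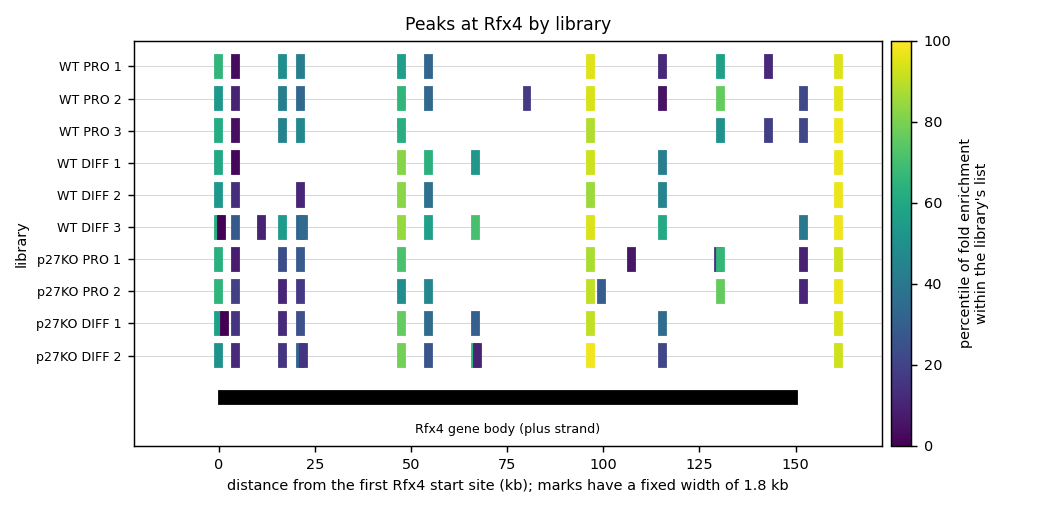
Peaks at Rfx4 in the 10 libraries (rows) by distance from the first start site in kb, coloured by percentile of fold enrichment within the list and drawn with a fixed width, above the gene body of 150.5 kb. The column at 130.5 kb is filled in the 5 PRO rows and empty in the 5 DIFF rows, while the column at 115.4 kb is filled in all 5 DIFF rows and 2 of the 5 PRO rows.

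Rfx2 and Rfx3, whose products act on motile cilium genes, each had an intronic region that was lower at DIFF in WT. The Rfx2 region 25880 bp from the start (chr17:56804597-56805417) fell from a fold enrichment of 8.17 ± 0.10 (SD, n = 3) in WT PRO to 4.28 ± 0.60 (n = 3) in WT DIFF. In p27KO it fell from 8.47 and 9.37 to 4.36 and 4.67. PRO and DIFF libraries were fully apart, as in 26.7% of all tested regions by score. The change was −0.71 ± 0.17 in WT (adjusted p = 0.0116) and −0.81 ± 0.20 in p27KO (adjusted p = 0.0248). The p27KO call was lost on leaving out any p27KO library (adjusted p = 0.0516 to 0.158). Close by, a small Rfx2 region (chr17:56805931-56806096) had a peak in all 5 PRO and no DIFF library, at fold enrichments of only 2.30 to 3.05. Its change in score was −0.10 ± 0.21 in WT and 0.10 ± 0.26 in p27KO, with the PRO peaks between the 0.416 and 7.25 percentile of their lists and the shared lowest score between −1.91 and −1.07, lower in longer lists.

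The Rfx3 region lay 162436 bp from the first start site (chr19:27848582-27848823). Fold enrichment was 10.2, 11.1 and 8.54 in WT PRO and 4.05, 5.32 and 5.71 in WT DIFF, without overlap, a change of −0.78 ± 0.21 (adjusted p = 0.0232). In p27KO it was 9.10 and 6.86 at PRO and 4.59 and 7.10 at DIFF, which overlapped, a change of −0.29 ± 0.25 (adjusted p = 0.534). The difference between the genotypes was 0.49 ± 0.33 and did not pass (adjusted p = 1.00). The WT call was lost without the first or second WT PRO or without the first or the third WT DIFF library (adjusted p = 0.0624 to 0.0958).

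Calls at Trp73 and Myb, which act early in the multiciliation programme, lay close to the threshold, in WT, and were not made in p27KO. The Trp73 region 30757 bp into the gene (chr4:154109268-154109946) had a peak in 1 of 3 WT PRO libraries, at 5.24, and fold enrichments of 4.23, 4.04 and 5.04 in WT DIFF. In p27KO it was at 5.32 and 6.15 in PRO and 5.31 and 6.98 in DIFF. The WT change was 0.98 ± 0.31 (adjusted p = 0.0466) and the p27KO change 0.28 ± 0.38 (adjusted p = 0.704). The WT PRO libraries without a peak were set at their lowest score, while the listed WT PRO value of 5.24 was above all 3 WT DIFF values. The positive WT change is therefore no rise in listed fold enrichment. The WT call was lost on leaving out any of 9 libraries, all but the first WT PRO library (adjusted p = 0.0571 to 0.206), and the difference between genotypes did not pass (−0.70 ± 0.49, adjusted p = 1.00).

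The Myb region 1164 bp inside the gene (chr10:21159701-21160183), in an intron, had fold enrichments of 3.49, 3.55 and 3.04 in WT PRO and 3.75, 3.29 and 4.10 in WT DIFF, which overlapped. In p27KO it was at 4.47 and 5.04 in PRO and 3.37 and 4.87 in DIFF. The change was 0.56 ± 0.18 in WT (adjusted p = 0.0495) and 0.02 ± 0.22 in p27KO (adjusted p = 0.962). Weak peaks score higher in shorter lists. The lowest score of a listed region was −0.67 and −0.56 in the first 2 WT DIFF libraries and −1.41 in the third. In WT PRO it was −1.33 to −1.21. A rise in score at such a weak region need not be a rise in fold enrichment. This call was lost on leaving out any WT PRO library (adjusted p = 0.171 to 0.199), either of the first 2 WT DIFF libraries or either p27KO PRO library.

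No region of Rfx1, Mcidas or Ccno was called. The Rfx1 region nearest to a call, picked out after its values were seen, lay in an intron 17180 bp from the start (chr8:84083813-84084232). It had fold enrichments of 9.14, 6.35 and 5.95 in WT PRO, 3.29, 3.70 and 4.02 in WT DIFF, 7.06 and 5.39 in p27KO PRO, and no peak and 3.98 in p27KO DIFF. PRO exceeded DIFF in every library of each genotype, a split in the same direction that 26.7% of all tested regions showed by score. The changes were −0.71 ± 0.23 in WT (adjusted p = 0.0546) and −0.91 ± 0.29 in p27KO (adjusted p = 0.0627).

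**Figure D4:**
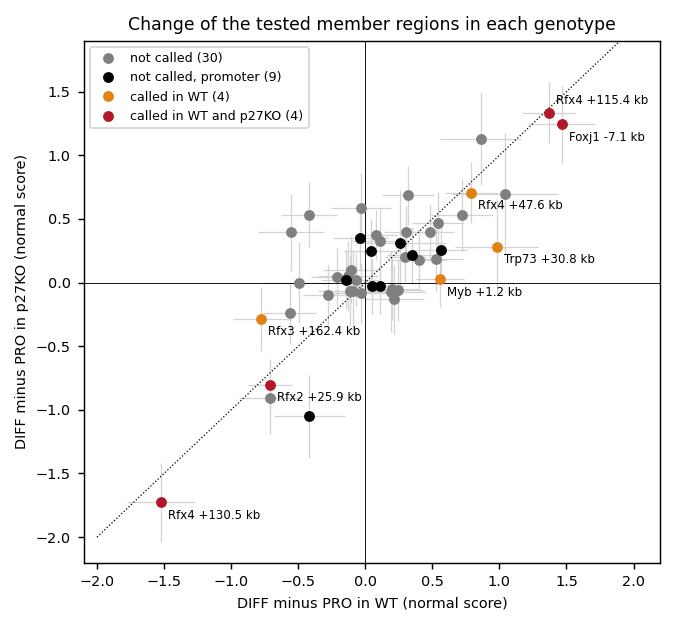
Change from PRO to DIFF in normal scores in WT (x axis) and p27KO (y axis) for the 47 tested member regions, with SE bars, a dotted line of equal change, and promoters in black. The 4 regions called in both genotypes lie far from 0 on both axes, and the 9 promoters are all uncalled.

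By presence alone, closed stands for a peak in each PRO library of a genotype and in none of its DIFF libraries, and opened for the reverse. Among the 64 member regions with peaks in at least 2 libraries, 2 were closed in WT (background 4.32% of 99231 regions) and 0 opened (1.86%). They were the Rfx2 region at 24992 bp and the Rfx4 region at 130477 bp. In p27KO, where 2 libraries per condition make the rule easier to meet, 5 were closed (10.9%) and 4 opened (3.32%). The 5 closed in p27KO included both WT regions, together with the outermost Trp73 start, a region near Dus3l beside Rfx2 and a region 152116 bp from the Rfx4 start. The 4 opened in p27KO were the Rfx4 regions at 115407 and 66886 bp, a region in Wrap73 beside Trp73 and a region beyond the end of Myb (chr10:21109876-21110080). The Myb region was absent from 2 of 3 WT PRO libraries and listed in all 3 WT DIFF libraries, at fold enrichments of 3.17 to 4.05, and its change did not pass in WT (0.86 ± 0.30, adjusted p = 0.0686) or p27KO (1.13 ± 0.37, adjusted p = 0.0703).

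Loss of p27 was then examined at fixed condition. None of the 47 member regions was called between p27KO and WT at PRO by limma (6 had an unadjusted p under 0.05), against 0.034% of all regions (5.53% unadjusted). None was called at DIFF (1 unadjusted), against 0.0156% (4.91% unadjusted). None showed an interaction, that is, a PRO to DIFF change that differed between the genotypes (2 unadjusted), against 0% of the 70627 regions (3.91% unadjusted). The 2 regions with an unadjusted interaction were neighbours in Rfx4, at 16486 and 21318 bp from the start. The first (chr10:84772344-84772913) had fold enrichments of 5.75, 5.21 and 5.11 in WT PRO against 3.59 and 3.18 in p27KO PRO, with peaks in 1 of 3 WT DIFF (5.50) and both p27KO DIFF libraries (3.31 and 3.69). The second (chr10:84777256-84777605) had 5.13, 4.53 and 5.17 in WT PRO against 3.83 and 3.43 in p27KO PRO. The p27KO minus WT difference at PRO was −0.88 ± 0.28 and −0.63 ± 0.23 (adjusted p = 0.703 and 0.809). The WT DIFF libraries without these peaks were the first, and for the first region also the second, which had the shortest lists.

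Promoters of genes that work with the 9 regulators were counted over 4 gene lists. All 13 multiciliation partners, among them Gmnc (GEMC1), Gmnn (geminin), E2f4 and E2f5, had a promoter peak in at least 1 library and 10 in all libraries, and 0 of 11 tested were called in either genotype, where 1.97% of all tested promoters were lower and 2.70% higher in WT and 0.957% and 1.21% in p27KO. Of 6 other RFX genes, 5 had a promoter peak and 0 of 5 were called, against the same shares. The median change of the partners was 0.23 in WT and 0.14 in p27KO, against 0.12 and 0.14 for all tested promoter regions. Gmnc, which acts upstream of Mcidas, had a promoter peak in 2 WT PRO libraries and 1 p27KO DIFF library and in none of the others. By limma, none of the 11 partners or 5 RFX promoters was called in the remaining comparisons either.

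Of 30 motile cilium genes, whose products build or assemble the axoneme, 28 had a promoter peak in at least 1 library and 21 to 27 per library. Among the 23 tested, 1 was lower at DIFF in WT (1.97% of all tested promoters) and 2 in p27KO (0.957%), and 0 were higher (2.70% and 1.21%). Lrrc6, a dynein arm assembly factor, was lower in both genotypes (−1.31 ± 0.20, adjusted p = 0.0010, and −0.90 ± 0.24, adjusted p = 0.0327). Armc4, a dynein docking factor, was called in p27KO (−1.75 ± 0.38, adjusted p = 0.0129) and not in WT (−0.87 ± 0.31, adjusted p = 0.0766). Their median change was −0.04 in WT and 0.04 in p27KO. All 20 primary cilium and transport genes were tested, and 1 was called, against the same shares. Bbs1, a BBSome subunit, was higher at DIFF in WT (1.49 ± 0.30, adjusted p = 0.0060), with a peak in every WT DIFF library and in no WT PRO library. In p27KO its change was 0.61 ± 0.37 (adjusted p = 0.343). The median change of this list was 0.18 in WT and 0.15 in p27KO.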

How the data were processed

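ATAC-seq libraries were clipped by the authors with Cutadapt, trimmed with Trimmomatic, mapped to GRCm38 with Bowtie2 and marked for duplicates with Picard, and narrow peaks were called per library with MACS2 at a false discovery rate of 0.05. Versions, read shift and extension size are not given in the sources used here. The deposited lists give each peak's fold enrichment (a ratio), −log10 p-value, −log10 q-value and summit offset. Read counts are not part of them, so depth is unknown and the study's DiffBind test was not run.

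Summits were assigned with GENCODE M21 to gene bodies with 20 kb on each side. Peaks of the 10 lists were merged at an overlap of 1 bp or more. Groups and replicate numbers came from the sample titles; free text of the p27KO libraries names WT cells, hence the Cdkn1b check. Normal scores were fitted with limma 3.58.1 in R 4.3.3 with 4 group means, Benjamini-Hochberg adjustment over 70627 regions and a threshold of 0.05. The fit was also run on simulated scores. These held no regions tied as absent, so the effect of such ties was not tested there. Sharing of the spread among groups assumes equal variance. Regions without a peak were tied at scores of −1.91 to −1.07, lower in longer lists. The lowest score of a listed region ran from −1.59 to −0.56 and was likewise lower in longer lists. The 9 genes, the gene lists and the markers were chosen with earlier results of these data known. For each gene, the promoter and the regions called, closed or opened were named, and for each list at most 4 genes, those called first. Alternatives were another ranked measure, region filters, list lengths, overlaps, fits, a replicate block and each library left out.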

Additional observations from a re-analysis of the deposited data

How the results depend on the processing

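The number of member regions called between PRO and DIFF in WT (8) and p27KO (4) fell to 3 and 2 where only regions with a peak in all 10 libraries were tested, which leaves out every region that a library lacks. The other alternatives on the full set of libraries moved them by less than 1.5 times. With each library left out in turn, they ranged from 4 to 9 and from 1 to 5, down to 4 without WT PRO 2 or WT DIFF 1 and to 1 without either p27KO PRO library or p27KO DIFF 2. By presence, the top 57000 peaks of each list gave 1 closed and 3 opened in WT and 2 closed in p27KO, an overlap of at least 100 bp gave 3 closed in p27KO, and gene bodies alone gave 3 closed and 2 opened in p27KO. Leaving out 1 library gave 2 to 5 closed and 0 to 2 opened in WT and 5 to 8 closed and 4 to 5 opened in p27KO. Without the third WT DIFF library, which had the long list, 9 regions were called in WT and 5 in p27KO. The counts of 0 for the interaction and for p27KO against WT stayed at 0 in every alternative run.

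Whether the replicate numbers pair the samples was not settled. In WT, correlations of PRO and DIFF deviations were 0.033 to 0.065 for the same number. For different numbers they were −0.051 to −0.0048. In p27KO they were −0.141 and 0.141, where 2 libraries per condition fix these values to opposite signs. With a replicate block, 7 member regions were called in WT, 4 in p27KO and 0 in the interaction, and with the p27KO numbers crossed, a choice made after seeing the data, 8, 4 and 0. 

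The sign of several small changes turned, none of them called in the reported fit. Ranking by −log10 p-value gave −0.0065 (Foxj1), −0.019 (Rfx1) and 0.081 (Rfx2) for WT promoters and −0.034 (Ccno promoter) and −0.094 (Myb region at 1164 bp) in p27KO. That Myb value was −0.0023 over regions in at least 2 libraries, −0.29 over regions in all 10 and −0.13 with the top 57000 peaks, and regions in all 10 gave −0.019 for the Foxj1 promoter in WT and −0.034 for the Myb promoter in p27KO. With a library left out, WT promoters ranged from −0.12 to 0.15 (Foxj1), −0.075 to 0.13 (Rfx1), −0.17 to 0.16 (Rfx2), −0.22 to 0.66 (Mcidas) and −0.30 to 0.00038 (Myb). In p27KO they ranged from −0.18 to 0.12 (Rfx1), −0.15 to 0.11 (Rfx4), −0.082 to 0.56 (Mcidas) and −0.048 to 0.075 (Myb), and the Myb region from −0.21 to 0.21. Among the called regions, the WT calls at Foxj1, Rfx2 and both distal Rfx4 regions held in every alternative that could test them. The p27KO change at the Trp73 promoter passed under 5 alternatives (adjusted p = 0.0269 to 0.0417). The p27KO call of the Foxj1 region was lost with regions in at least 2 libraries or a fit on the compared groups alone (adjusted p = 0.0601 and 0.0578), as was that of the Rfx2 region (0.0561 and 0.0845), which the block also ended (0.0748). That of the Rfx4 region at 115407 bp was lost with the top 57000 peaks (0.0583). The Trp73 and Myb calls were lost under 4 and 7 of these alternatives. Read depth limits all presence calls, and its part was not tested.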
